A study of Rattus norvegicus with 10 samples.

Results

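The core circadian clock genes described here are Per1, Per2, Per3, Cry1, Cry2, Clock, Arntl, Nr1d1, Nr1d2 and Dbp. They were taken by gene symbol from a table of expected read counts, and all 10 were found among its 17168 rows and passed the low-count filter that left 12355 genes. Each library holds the poly(A) RNA of 1 left hippocampus, and the 10 rats were TgF344-AD males killed at 11 months of age. TgF344-AD is a Fischer 344 line that carries human transgenes, including mutant APP, under the mouse prion promoter and develops amyloid plaques. All rats of both groups carried the transgenes. The 5 untreated rats ate rodent chow, and the 5 ibudilast rats received chow with ibudilast, a phosphodiesterase inhibitor, for 6 months that began at 5 months of age. Tissue of the ibudilast group alone was kept in RNAlater-ICE, a transition solution for frozen tissue, so drug and storage cannot be told apart in any difference below. The time of day at which each rat was killed was not given in the sources used here. Whether both groups were killed at the same time of day is therefore not known. A difference in that time could not be told apart from drug and storage. The values are levels at unrecorded circadian times, and no phase was measured.

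The mammalian clock is a transcriptional feedback loop with an activating and a repressing arm. CLOCK and ARNTL (also called BMAL1) pair and switch on genes with E-box elements, among them the period (Per) and cryptochrome (Cry) genes, whose proteins then block the CLOCK and ARNTL pair. A second loop runs through the nuclear receptors REV-ERB alpha (Nr1d1) and REV-ERB beta (Nr1d2), which repress Arntl, while the ROR receptors activate it from the same DNA elements. DBP is an output transcription factor that binds D-box elements. In most rodent tissues that cycle, Arntl transcript peaks at about the opposite time of day to Dbp and the Per transcripts. The hippocampus has such a local clock, which follows signals from the suprachiasmatic nucleus.

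These elements can be read in the promoter windows that RefSeq gives for the rat GRCr8 build (250 bases before to 50 after a transcript start). Of the 10 genes 9 matched, with 11 windows in all, and Arntl was matched as Bmal1. On both strands, 5 motifs were searched: the E-box CACGTG, its variant CACGTT, the D-box TTATGTAA, the ROR response element (AANTN followed by GGTCA) and the cAMP response element TGACGTCA. Shown are the stretches of Per2, Arntl and Nr1d1 that hold the D-box, the ROR element, the E-box and the E-box variant, since they display both arms of the loop. Each runs 5′ to 3′ on the gene's strand, with the motif in capitals.
Per2 upstream of the annotated gene, D-box, GRCr8 chr9:99497070-99497243, minus strand: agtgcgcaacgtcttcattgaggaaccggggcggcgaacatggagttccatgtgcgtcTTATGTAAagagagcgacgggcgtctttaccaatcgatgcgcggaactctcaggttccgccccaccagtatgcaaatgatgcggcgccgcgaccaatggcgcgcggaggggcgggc
Per2, E-box variant, GRCr8 chr9:99497038-99497067, minus strand: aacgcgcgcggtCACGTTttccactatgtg
Arntl, ROR response element, GRCr8 chr1:176766299-176766328, plus strand: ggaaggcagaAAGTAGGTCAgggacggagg
Nr1d1 at its inner transcript start, E-box, GRCr8 chr10:84229628-84229657, minus strand: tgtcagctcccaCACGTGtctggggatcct
Over all 33469 windows, 6.42% held CACGTG, 4.83% CACGTT, 0.893% the D-box, 0.852% the ROR element and 1.83% the cAMP response element. Among the 11 windows of the clock genes, 1 held CACGTG, 3 held CACGTT (Per2, Cry2 and the outer start of Nr1d1), 1 the D-box, 1 the ROR element and 0 the cAMP response element, and none of these matches overlapped. The matches are descriptions of the letters in these windows. Sequence outside the windows and other forms of these motifs were not searched, and Cry1 had no window. A motif without a match here may therefore still occur elsewhere at these genes.

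Library totals ran from 14806807 to 18533520 counts, and the clock genes had between 160 and 5199 counts in any library, the lowest being Cry1 in ibudilast replicate 3. Levels below are CPM, that is counts scaled to a fixed total per library, on library sizes scaled by TMM factors, and they are compared between rats for the same gene, never between genes, because transcript lengths were not used. Tests are edgeR's quasi-likelihood test over all 12355 genes with Benjamini-Hochberg adjustment at 0.05. By this test 47.1% of all genes were called, 24.3% higher and 22.8% lower with ibudilast, and for 33.4% the CPM of the groups did not overlap. Marker genes also moved with the groups. The summed CPM of the 15 oligodendrocyte markers ran from 8126 to 15750 in untreated and from 16361 to 20047 in ibudilast rats, with 7 markers higher and 0 lower. The 13 excitatory neuron markers, with granule and pyramidal cell genes among them, summed to 5419 to 8088 and 1465 to 6267 CPM (0 higher, 3 lower), the 12 microglia markers to 659 to 1246 and 549 to 661 CPM (0 higher, 6 lower). The 11 measured astrocyte markers summed to 8474 to 12816 and 8013 to 9934 CPM (5 lower), and the 10 endothelial markers to 382 to 714 and 183 to 429 CPM (5 lower of 9 tested), with 0 higher in either list. Of these 5 lists, 0 markers were at 0 in all libraries of a group. Several libraries stood apart. Choroid plexus markers summed to 8233 CPM in untreated replicate 2 and 7450 CPM in ibudilast replicate 1 against 26.7 to 366 CPM in the others. Markers of thalamus and habenula summed to 454 CPM in ibudilast replicate 4 against 43.4 to 139 CPM elsewhere. Untreated replicate 3 had the highest sums of microglia, astrocyte and endothelial markers. The part of cell composition in the clock gene results was not tested beyond the values given below, and in whole tissue fewer cells of a type and less RNA per cell cannot be told apart.

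Of the 3 period genes Per2 and Per3 were higher with ibudilast, as was the output gene Dbp, and both core activators were lower. Per3 rose 2.28-fold, Per2 1.64-fold and Dbp 1.504-fold, while Clock fell by 21.6% and Arntl by 22.3%. Per1, Cry1, Cry2, Nr1d1 and Nr1d2 did not pass the test. Thus 5 of 10 genes were called (50%), 3 of them higher and 2 lower, beside 47.1%, 24.3% and 22.8% of all genes tested. The CPM of the groups did not overlap for 3 of the 10 (Clock, Arntl and Per3), beside 33.4% of all genes. The median absolute log2 fold change was 0.345 over the 10 genes and 0.363 over all genes tested. The share of genes called was near that of all genes tested, so the count is no result about the clock genes. Of the 7 genes of the repressing loops only Per2 and Per3 passed, and the estimates of the other 5 had both signs.

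**Figure D1:**
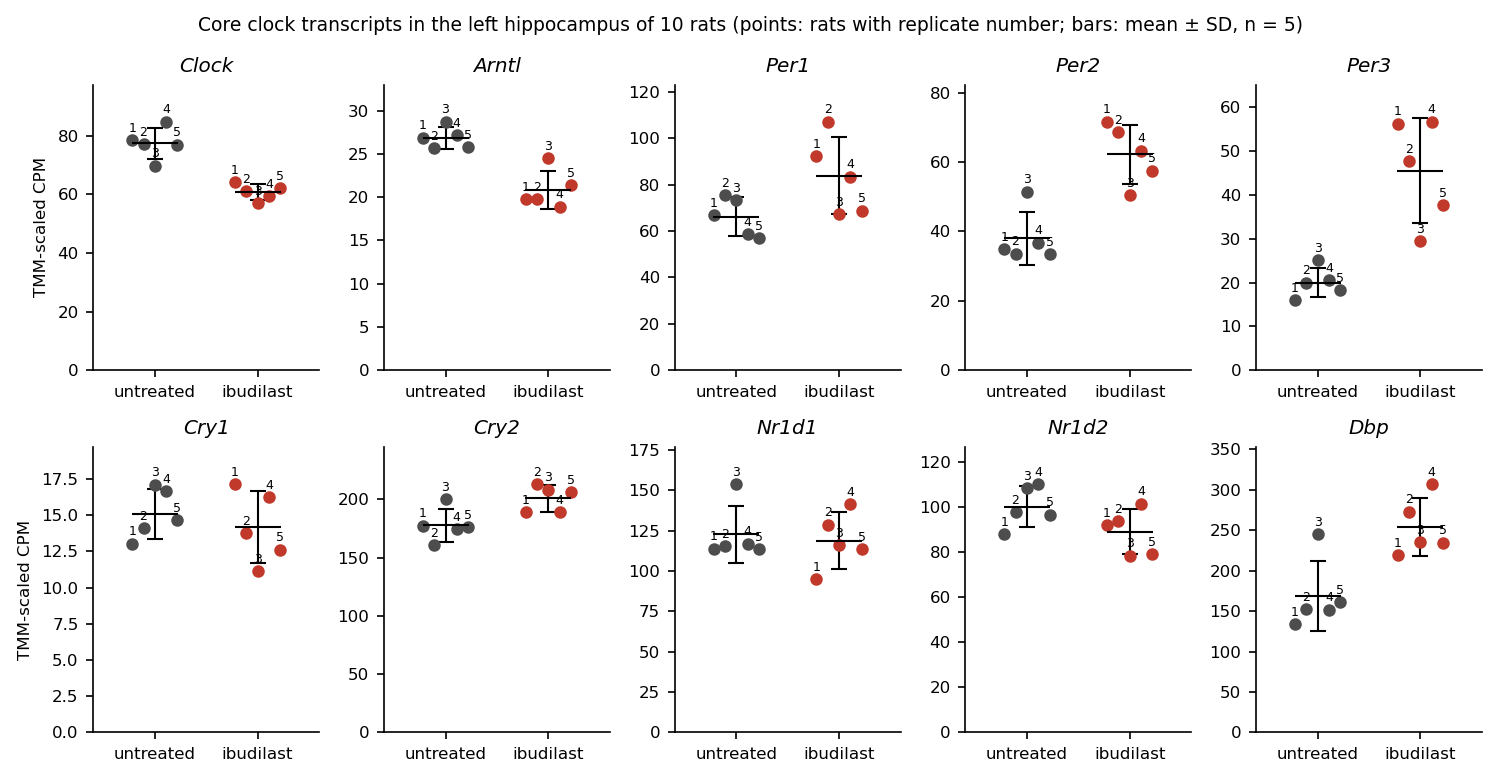
TMM-scaled CPM (y axis, from 0) of each core clock gene in the untreated and ibudilast rats. Points are rats labelled with their replicate number, and bars are the mean and SD of 5 rats. Clock, Arntl and Per3 show no overlap between the groups, and untreated replicate 3 lies above the other untreated rats for Per2, Nr1d1 and Dbp.

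The activating arm is formed by Clock and Arntl, 2 bHLH-PAS transcription factors that act as a pair. Clock was at 78.5, 77.2, 69.8, 84.8 and 76.9 CPM in untreated replicates 1 to 5 and at 64.1, 61.1, 56.9, 59.3 and 62.2 CPM in ibudilast replicates 1 to 5. Every ibudilast rat was below the lowest untreated rat, replicate 3. The group values were 77.4 ± 5.33 and 60.7 ± 2.74 CPM (SD, n = 5), and the log2 fold change was −0.35 ± 0.06 (SE, adjusted p = 0.00140 by edgeR's quasi-likelihood test). Arntl was at 26.9, 25.7, 28.7, 27.2 and 25.8 CPM in the untreated rats and at 19.8, 19.8, 24.5, 18.9 and 21.4 CPM in the ibudilast rats. Again no ibudilast rat reached the lowest untreated value, although replicate 3 came near it. The means were 26.8 ± 1.23 and 20.9 ± 2.21 CPM (SD, n = 5), a log2 fold change of −0.36 ± 0.08 (SE, adjusted p = 0.00431, edgeR). With these 4 libraries left out (replicates 2 and 3 of the untreated and 1 and 4 of the ibudilast group), Clock was at −0.41 (adjusted p = 0.000757) and Arntl at −0.28 (adjusted p = 0.0283) on the log2 scale in edgeR's test. With the oligodendrocyte marker mean as a covariate, Arntl was at −0.24 and did not pass (adjusted p = 0.118, edgeR), while Clock was at −0.46 (adjusted p = 0.00331). The sums of these markers did not overlap between the groups, so this covariate is largely tied to the group. With it, 4142 genes were called in all, against 5817 in the main test.

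The period genes encode the proteins that enter the repressor complex, and their transcripts are targets of CLOCK and ARNTL. Per3 was at 15.9, 20.005, 25.0, 20.6 and 18.3 CPM in untreated and at 56.3, 47.7, 29.4, 56.7 and 37.6 CPM in ibudilast rats. The groups did not overlap, with ibudilast replicate 3 nearest to the untreated rats. Per3 went from 19.97 ± 3.36 to 45.5 ± 11.9 CPM (SD, n = 5), a log2 fold change of 1.19 ± 0.19 (SE, adjusted p = 0.000589, edgeR), and 3.87% of all genes tested had a higher one. Per2 was at 34.9, 33.6, 51.4, 36.7 and 33.4 CPM in untreated and at 71.6, 68.6, 50.4, 63.2 and 57.5 CPM in ibudilast rats. The overlap came from 2 rats, since untreated replicate 3 was above ibudilast replicate 3, and all other ibudilast rats were above all untreated rats. The means were 38.0 ± 7.63 and 62.2 ± 8.54 CPM (SD, n = 5), and the log2 fold change was 0.71 ± 0.14 (SE, adjusted p = 0.00190, edgeR). Per1, an early-response gene as well as a clock gene, was at 67.0, 75.4, 73.4, 58.7 and 57.0 CPM in untreated and at 92.2, 107, 67.4, 83.6 and 68.9 CPM in ibudilast rats. Ibudilast replicates 3 and 5 lay inside the untreated range and the other 3 above it. Its log2 fold change of 0.34 ± 0.14 (SE) did not pass (adjusted p = 0.0660, unadjusted p = 0.0330, edgeR). Per1 passed in 3 of 24 alternative runs, all by edgeR's test. It did so when ibudilast replicate 3 (0.41, adjusted p = 0.0356) or 5 (0.40, adjusted p = 0.0428) was left out. The other was library size alone as the scaling (0.41, adjusted p = 0.0391). With the oligodendrocyte (0.37, adjusted p = 0.241) or excitatory neuron marker mean (0.30, adjusted p = 0.177) as a covariate it did not pass. With the same 4 libraries left out, Per3 was at 1.07 (adjusted p = 0.00105), Per2 at 0.75 (adjusted p = 0.000308) and Per1 at 0.42 (adjusted p = 0.0932) by edgeR's test. The size of the difference thus ran Per3, Per2, Per1 in these estimates, an order that was not itself tested.

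The cryptochromes, flavoproteins that repress CLOCK and ARNTL directly, did not pass the test. Cry1 was at 13.04, 14.1, 17.1, 16.7 and 14.7 CPM in untreated and at 17.2, 13.7, 11.2, 16.2 and 12.6 CPM in ibudilast rats, and the groups overlapped over nearly their whole range. Its log2 fold change was −0.09 ± 0.13 (SE, adjusted p = 0.604, edgeR). Cry2 was at 178, 161, 200, 175 and 176 CPM in untreated and at 189, 213, 208, 189 and 206 CPM in ibudilast rats. All 5 ibudilast rats were above the untreated mean of 178 CPM, and untreated replicate 3 was inside the ibudilast range. The log2 fold change was 0.18 ± 0.07 (SE) and did not pass (adjusted p = 0.0696, unadjusted p = 0.0353, edgeR). Cry2 passed in 5 of 24 alternative runs, all by edgeR's test. It did so without untreated replicate 3 (0.20, adjusted p = 0.0206) and without the 4 libraries named above (0.25, adjusted p = 0.00506). It also passed with the oligodendrocyte marker mean as a covariate (0.29, adjusted p = 0.0424). The others were upper-quartile factors (0.22, adjusted p = 0.0277) and library size alone (0.25, adjusted p = 0.00723). Its call thus depended on the scaling and on 1 untreated library.

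The REV-ERB genes, which carry the second repressing loop, showed no difference that passed. Nr1d1 was at 114, 115, 154, 117 and 114 CPM in untreated and at 94.9, 129, 116, 142 and 113 CPM in ibudilast rats. Apart from untreated replicate 3, the untreated rats lay within 4 CPM of each other and inside the ibudilast range. The means were 123 ± 17.5 and 119 ± 17.5 CPM (SD, n = 5), and the log2 fold change was −0.05 ± 0.12 (SE, adjusted p = 0.787, edgeR). The sign of this estimate turned with library size alone (0.03) and without untreated replicate 3 (0.02) among other settings, so no direction is given. Nr1d1 overlaps Thra, the thyroid hormone receptor alpha gene, in the RefSeq annotation, and its counts were fractional in all 10 libraries. How the counting used strand was not given in the sources used here, so reads of the overlap may have been shared and the Nr1d1 values are uncertain. Counts of Clock and Cry2 were also fractional in all 10 libraries. In the RefSeq annotation Clock overlaps 2 long noncoding RNA genes and Cry2 overlaps 1, none of which was found by name among the counted genes. Per2 and Cry1 overlap 1 gene each as well, yet had a fractional count in 0 libraries. The source of the fractions was not tested, so the values of Clock and Cry2 are uncertain too, the call of Clock included. Thra itself ran from 645 to 865 CPM in untreated and from 403 to 797 CPM in ibudilast rats (log2 fold change −0.17, adjusted p = 0.442, edgeR). Nr1d2 was at 88.0, 97.8, 108, 110 and 96.6 CPM in untreated and at 91.9, 93.7, 78.4, 101 and 79.0 CPM in ibudilast rats. Only ibudilast replicate 4 was above the untreated mean of 100.1 CPM, and 2 of the 5, replicates 3 and 5, were below all untreated rats. Its log2 fold change of −0.17 ± 0.09 (SE) did not pass (adjusted p = 0.151, edgeR). It passed in 1 of 24 alternative runs, with the excitatory neuron marker mean as a covariate (−0.29, adjusted p = 0.0308, edgeR).

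Dbp, a PAR bZIP transcription factor that carries clock time to other genes, was higher with ibudilast. It was at 134, 152, 245, 152 and 161 CPM in untreated and at 219, 273, 235, 307 and 235 CPM in ibudilast rats. Untreated replicate 3 lay inside the ibudilast range, and the other 4 untreated rats were below every ibudilast rat. The means were 169 ± 43.8 and 254 ± 35.7 CPM (SD, n = 5), with a log2 fold change of 0.59 ± 0.16 (SE, adjusted p = 0.0129, edgeR). Without untreated replicate 3 it was 0.74 (adjusted p = 0.000388), and with the 4 libraries above left out it was 0.73 (adjusted p = 0.000110). With the excitatory neuron marker mean as a covariate it was 0.38 and did not pass (adjusted p = 0.0669, edgeR).

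**Figure D2:**
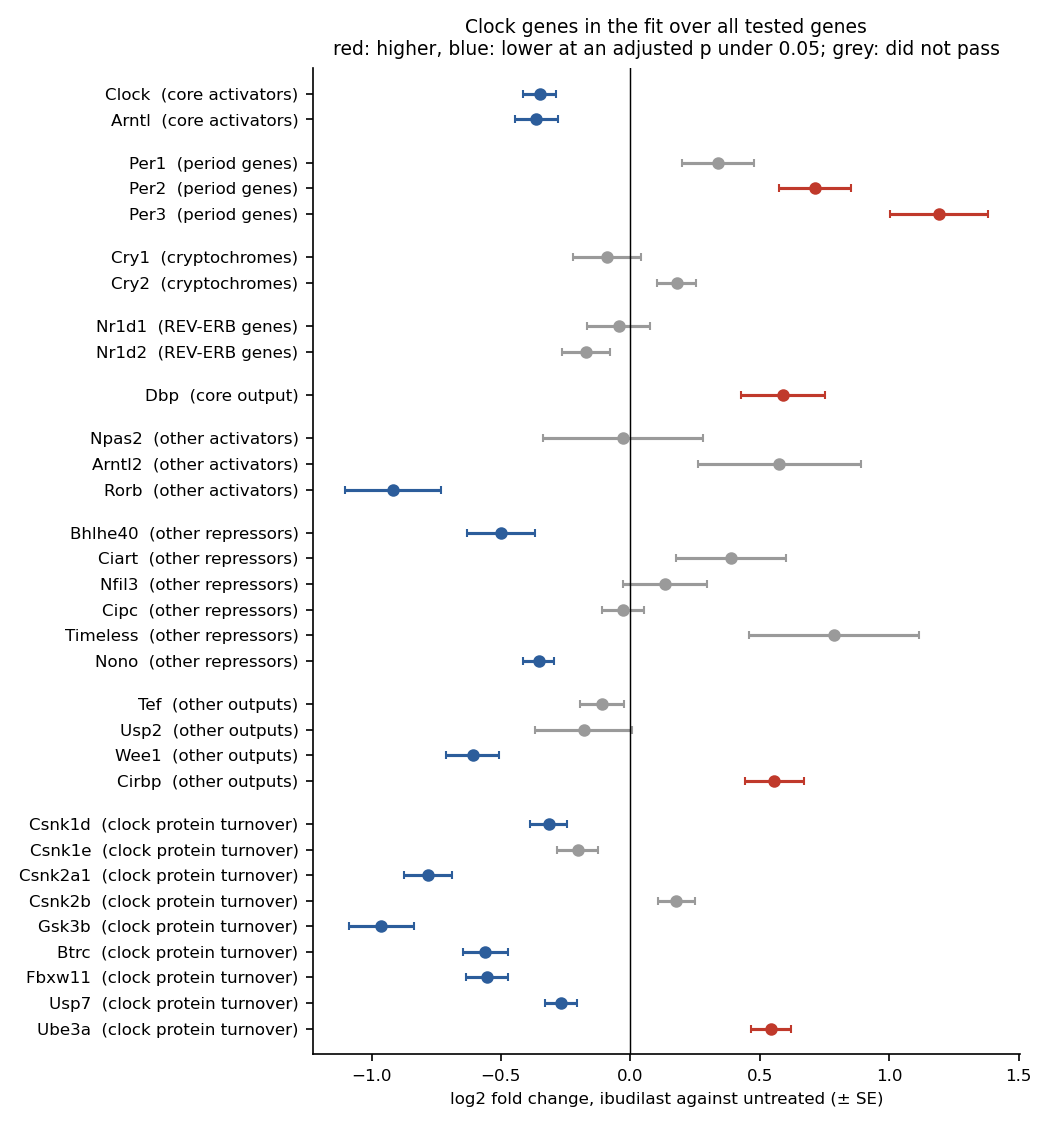
Log2 fold change of ibudilast against untreated rats (x axis, points) with its SE (bars) for the 10 core clock genes and other clock genes in the table, grouped by role. Red points passed as higher, blue points as lower and grey points did not pass at an adjusted p of 0.05. Per3 lies at 1.19 and Gsk3b at −0.96, the ends of the range shown.

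The relation of the arms was read rat by rat, from ratios of CPM inside a library, in which the scaling of libraries cancels. The ratio of Per3 to Arntl was 0.593, 0.779, 0.872, 0.757 and 0.709 in untreated replicates 1 to 5 and 2.84, 2.42, 1.202, 3 and 1.76 in ibudilast replicates 1 to 5. It was higher in every ibudilast rat than in any untreated rat, with means of 0.742 ± 0.102 and 2.24 ± 0.755 (SD, n = 5), 3.02-fold apart. The ratio of Dbp to Arntl ran from 4.97 to 8.53 (median 5.93) in untreated and from 9.60 to 16.2 (median 11.1) in ibudilast rats, and that of Per2 to Clock from 0.433 to 0.737 (median 0.435) and from 0.885 to 1.12 (median 1.07). Neither ratio overlapped between the groups. The ratio of Nr1d1 to Arntl did overlap, at 4.24 to 5.36 in untreated and 4.74 to 7.49 in ibudilast rats. Within the repressing arm, the ratio of Per3 to Nr1d1 was 0.140 to 0.176 in untreated and 0.253 to 0.593 in ibudilast rats, again without overlap. The mean log2 CPM of the 3 period genes minus that of Clock and Arntl was −0.32 ± 0.21 in untreated and 0.77 ± 0.33 in ibudilast rats (SD, n = 5), with 0.02 in untreated replicate 3 and 0.31 in ibudilast replicate 3 as the nearest values. The cryptochrome and REV-ERB genes, none of which passed, are left out of this difference. All of these ratios and means are combinations of genes already described and were given no test. The ratios of Per3 and Dbp to Arntl and of Per2 to Clock pair genes called in opposite directions. Their lack of overlap therefore adds nothing to those calls, and such ratios were not computed for other pairs of genes.

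**Figure D3:**
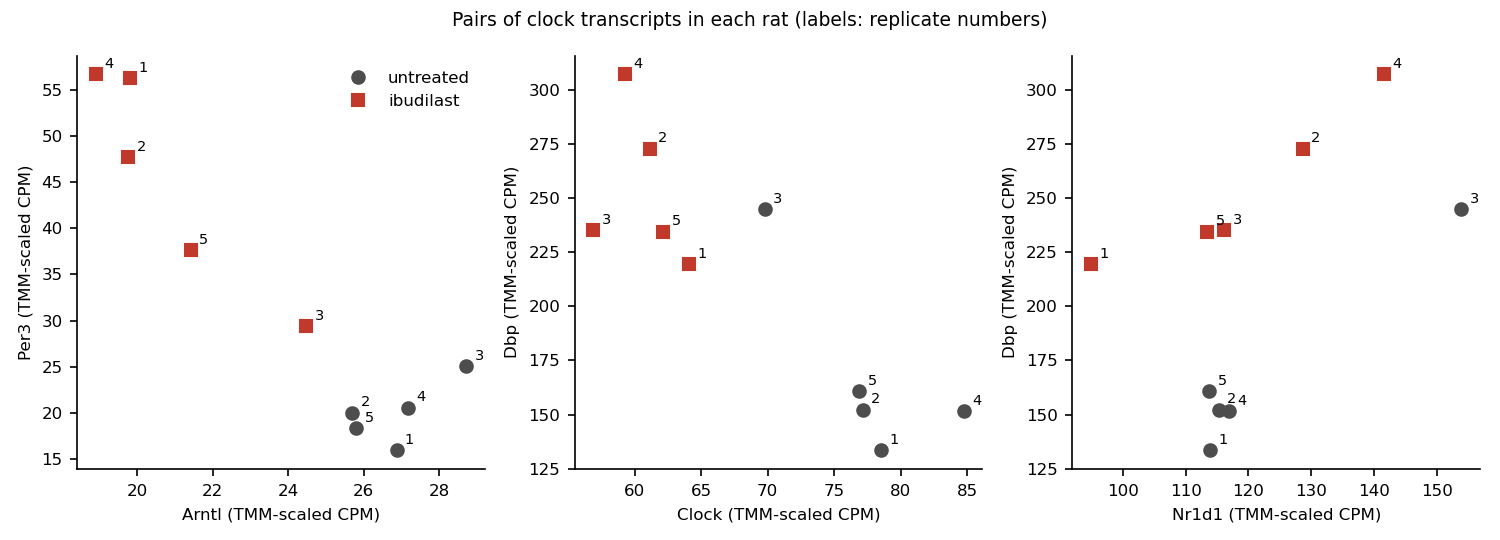
TMM-scaled CPM of Per3 against Arntl, Dbp against Clock and Dbp against Nr1d1, with 1 point per rat (circles untreated, squares ibudilast, numbers are replicates). Axes do not start at 0. Ibudilast replicate 4 has the highest Per3 (56.7 CPM) and the lowest Arntl (18.9 CPM), ibudilast replicate 3 the reverse within its group (29.4 and 24.5 CPM), and untreated replicate 3 stands apart from the other untreated rats for Dbp.

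Rats of the same group also differed from each other. Among ibudilast rats, replicate 3 had the lowest level of 6 genes (Clock, Per1, Per2, Per3, Cry1 and Nr1d2) and the highest of Arntl, while replicate 4 had the highest level of Per3, Nr1d1, Nr1d2 and Dbp and the lowest of Arntl and Cry2. Per3 and Arntl therefore ran in opposite directions in these 2 rats. Replicates 4 and 3 also had the lowest (1465 CPM) and the highest (6267 CPM) excitatory neuron marker sum of the ibudilast group. The part of tissue content in this pattern was not tested. Among untreated rats, replicate 3 had the highest level of 7 genes (Arntl, Per2, Per3, Cry1, Cry2, Nr1d1 and Dbp) and the lowest of Clock, so that Per3 and Arntl were highest in the same rat. Groups of 5 rats that separate from each other are too few for a correlation, and none was computed.

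**Figure D4:**
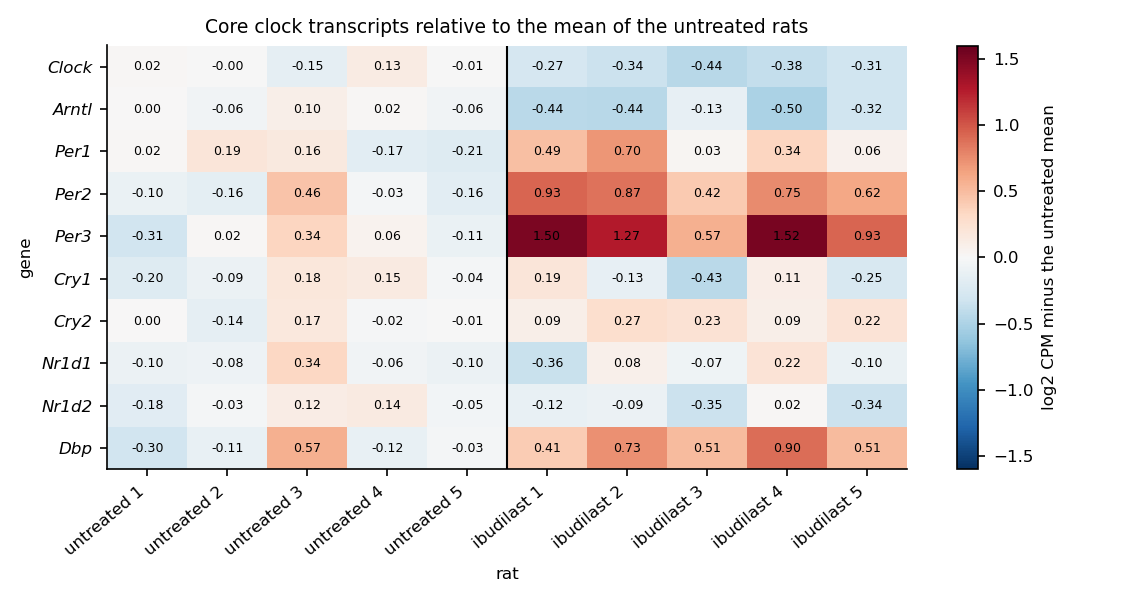
Log2 CPM of each core clock gene (rows) in each rat (columns) minus the mean of the 5 untreated rats, printed in each cell and coloured from blue (lower) to red (higher). Per3 is 0.57 to 1.52 above the untreated mean in the ibudilast rats, and Arntl is 0.13 to 0.50 below it.

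The likeness of other genes to single members was measured as the root mean square difference in log2 CPM over the 10 rats, after each gene was centred on its own group means, among genes of at least 10 CPM. The nearest to Dbp were Tmem86a (0.0833), Dab2ip (0.0882) and Phf1 (0.0913), Oaz2 (0.0430) and Timm8b (0.0467) were among the 3 nearest to Arntl, and the nearest to Per1 were Helz (0.112), Foxo3 (0.116) and Mccc1 (0.126). The spread of the members themselves on this scale was 0.245 for Dbp, 0.101 for Arntl and 0.213 for Per1. Of the other core genes, Nr1d1 was nearest to Dbp (0.113, rank 22 of 9005 genes), whereas Per2 was at 0.188 from it (rank 748). Dbp and Nr1d1 were both highest among untreated rats in replicate 3. All genes share the libraries, so this is a description without a test.

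Other clock genes were read from lists that were chosen with earlier results of these data known. Of the 30 genes in these lists, 23 were in the table, Ciart and Cipc under RefSeq synonyms. The others, among them Rora, Bhlhe41, Hlf, Fbxl21, Fbxw7 and Huwe1, were not analysed here. All 23 were tested, and 2 were higher, 11 lower and 10 did not pass, beside 24.3% and 22.8% of all genes. Their median log2 fold change was −0.19, against 0.02 over all genes tested. Among other activators, Rorb, a receptor that activates Arntl and that is also in the list of thalamus and habenula markers, fell by 0.92 on the log2 scale, from 14.4 ± 3.86 to 7.60 ± 1.10 CPM (SD, n = 5; adjusted p = 0.00229, edgeR). Npas2, a relative of Clock that can replace it in the forebrain, was at 70.9 ± 38.8 and 69.5 ± 14.9 CPM (adjusted p = 0.954, edgeR). Arntl2 did not pass either.

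Among 6 other repressors, 0 were higher, 2 lower and 4 did not pass, beside 24.3% higher and 22.8% lower over all genes. Bhlhe40 (DEC1), an E-box repressor that is itself an E-box target and also responds to neuronal activity, fell from 63.6 ± 12.8 to 45.0 ± 3.999 CPM (adjusted p = 0.00952, edgeR). Nono, an RNA-binding partner of PER proteins, fell by 0.35 on the log2 scale. Ciart (CHRONO), a repressor of CLOCK and ARNTL, was at 0.39 and did not pass (adjusted p = 0.160, edgeR), nor did Nfil3, Cipc and Timeless. Of 4 other outputs, Cirbp, a cold-inducible RNA-binding protein, rose from 44.8 ± 5.11 to 65.9 ± 10.2 CPM, and Wee1, a cell cycle kinase under clock control, fell from 31.6 ± 2.48 to 20.7 ± 3.002 CPM (SD, n = 5). Tef, a PAR bZIP relative of Dbp, was at 362 ± 16.2 and 336 ± 34.8 CPM (adjusted p = 0.317, edgeR) and did not pass, and neither did Usp2.

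Of 10 genes for enzymes that mark or degrade clock proteins, 7 were lower, 1 was higher and 2 did not pass, beside 22.8% lower and 24.3% higher over all genes, and the list was given no test. Gsk3b, a kinase that phosphorylates several clock proteins, fell by 0.96 on the log2 scale, and Csnk2a1, a casein kinase 2 subunit, by 0.78. Csnk1d, the casein kinase 1 delta that phosphorylates PER proteins, fell by 0.32, and its relative Csnk1e was at −0.20 (adjusted p = 0.0541, edgeR). Among ubiquitin ligase genes, Btrc, whose product recognises phosphorylated PER, fell by 0.56, and its relative Fbxw11 fell by 0.55. The deubiquitinase gene Usp7 fell by 0.27. Ube3a, another ubiquitin ligase gene, rose by 0.54 (adjusted p = 0.000299, edgeR), and Csnk2b was at 0.18 (adjusted p = 0.0625). The number of calls changed with the setting for all genes as well. With all libraries, 2 of the 23 other clock genes were higher and 11 lower, beside 3004 and 2813 of all 12355 genes. With the 4 libraries named above left out, 7 were higher and 10 lower, beside 3483 and 3374 of 12325. Without untreated replicate 3 alone, 4 were higher and 11 lower, beside 3068 and 3224 of 12417. With the oligodendrocyte marker mean as a covariate, 3 were higher and 8 lower, beside 2185 and 1957 of 12355.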

How the data were processed

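The deposited tables hold, per gene symbol, expected counts that the authors estimated and did not normalize, and a TMM-normalized signal that the authors derived from them. The rn6 build, RSEM 1.2.15, Bowtie2 2.1.0, edgeR and bcl2fastq are listed in the submitters' processing notes with no role for each. For annotation and strand setting, nothing was given in the sources used here. Per the labels, libraries came from a stranded mRNA kit.

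Expected counts (12.0% not whole) were rounded. The main test was edgeR 4.0.16 (quasi-likelihood, robust, TMM, filterByExpr; R 4.3.3) over 12355 genes, and it was checked on simulated counts. Log2 CPM used a prior count of 2. Groups and replicate numbers came from sample titles, and each library is a separate rat, per the series' design text. No libraries of a group agreed within sampling noise (lowest chi-square per gene 11.5). Whole reads were recovered from the signal (100% whole within 0.01), and their test called 5817 genes, as did the main test. The signal was derived from the same counts, so this match was fixed in advance and is no separate check. The test on recovered reads and the alternatives for the other clock genes were added after the data were seen. Alternatives included DESeq2 1.42.0, limma 3.58.1, other scalings and filters, covariates, a replicate block and left-out rats. The members and gene lists, the markers and the 4 libraries left out together were chosen with earlier results of these data known. All 10 members were named, other clock genes by list, and 3 nearest genes for Dbp, Arntl and Per1. RefSeq names and promoter windows are from GRCr8, matched by symbol or synonym. A few genes that these rules name are not reported here, though counts over lists include them.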

Additional observations from a re-analysis of the deposited data

Results flagged for a closer look

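Among 20 sets of 5 rats (10 genes in each group), 3 had a rat whose distance from its nearest neighbour was more than 0.71 of the group's range, where chance gives about 1 in 20. All 3 concern untreated replicate 3, which was the highest of its group for Per2 at 51.4 CPM, for Nr1d1 at 154 CPM and for Dbp at 245 CPM. The gaps were 0.817, 0.922 and 0.754 of the range. This library also had the highest microglia (1246 CPM), astrocyte (12816 CPM) and endothelial (714 CPM) marker sums of all 10 rats and the lowest excitatory neuron (5419 CPM) and oligodendrocyte (8126 CPM) marker sums of its group. The part of these marker levels in the 3 values was not tested.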

How the results depend on the processing

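Over 24 alternatives, the number of core clock genes called was 5 to 7 and that of all genes 4142 to 6857. Among these, the test on recovered reads repeats the main test on the same counts. Clock, Per2 and Per3 passed in every alternative run, with log2 fold changes of −0.46 to −0.28, 0.60 to 0.89 and 0.94 to 1.31. Arntl (−0.43 to −0.24) failed only with the oligodendrocyte covariate and Dbp (0.38 to 0.84) only with the excitatory neuron covariate. The oligodendrocyte covariate is largely tied to the group and gave the fewest calls over all genes (4142). Leaving out each rat in turn ended none of these 5 calls, with adjusted p of at most 0.0436. Nr1d1 (−0.14 to 0.025 with 1 rat left out), which did not pass in any alternative run, changed sign to 0.00032 with upper-quartile factors, 0.033 with library size alone, 0.13 with the oligodendrocyte covariate, 0.024 without untreated replicate 3, 0.025 without ibudilast replicate 1 and 0.056 without the 4 libraries that stood apart. The cause was not tested. With a replicate block, the calls were 5 core clock genes and 4726 genes in all. Deviations of same-numbered rats correlated at −0.33 to 0.42 and 0 of 5 matched best with their own number. No pairing by number was seen in these values, but they cannot exclude one. Groups of 5 rats killed at unrecorded times of day limit all of these comparisons.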

Other observations

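Per1 is a target of the glucocorticoid receptor, and a list of 12 glucocorticoid response genes was read from the same fit. Of these, 1 was higher, 1 lower and 10 did not pass by edgeR's quasi-likelihood test, beside 24.3% and 22.8% of all genes tested. Tsc22d3, which encodes the glucocorticoid-induced leucine zipper, rose from 77.7 ± 6.85 to 102 ± 15.1 CPM, with no overlap between the groups. Mertk, a receptor for the uptake of dead cells that microglia and astrocytes also express, fell from 43.6 ± 15.5 to 28.3 ± 4.73 CPM (SD, n = 5). Fkbp5, a chaperone partner of the receptor, was at 95.0 ± 19.7 and 90.1 ± 14.7 CPM (adjusted p = 0.735, edgeR), and Sgk1 at 138 ± 35.5 and 189 ± 91.4 CPM (adjusted p = 0.252, edgeR). The summed level of the list ran from 762 to 935 CPM in untreated and from 701 to 1090 CPM in ibudilast rats. Among ibudilast rats, replicates 2 and 3 were the highest and the lowest both in this sum and for Per1. Among untreated rats, replicate 2 was the highest in both, but replicate 3 had the lowest sum (762 CPM) and the second-highest Per1 (73.4 CPM).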
